A study of Homo sapiens with 7 samples.

Results

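The sites described here are spaced neighbours: places of eIF3a contact, mapped on the genome, whose nearest other site on the same strand lay 100 to 1000 nt away. The sites were chosen by their listed positions and profiles in 1 list of eIF3a contacts on the human genome build hg19. Entries of the list with the same chromosome, strand and coverage profile that fitted within the length of that profile were joined into 1 cluster. Clusters on primary chromosomes were then kept where the distance to the nearest other cluster, from listed edge to listed edge, was 100 to 1000 nt. This gave 360 of 3566 clusters, or 10.1%, with 4360 of 38419 reads, or 11.3%. A further 845 clusters had a neighbour under 100 nt away, and 2361 had none within 1000 nt.

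The series held 7 samples of human cell lines, of which 2 were replicates of eIF3a PAR-iCLIP in HEK293T, an established embryonic kidney line. The cells were given 4-thiouridine for 8 h and irradiated at 354 nm, with no other treatment named, and eIF3a with its RNA was recovered by an antibody. The other 5 samples mapped m6A with and without heat shock and were not analysed here. The list of contacts does not separate the replicates, so no value has a replicate error, and intervals cover counting error only.

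eIF3 is a complex of many subunits that joins the small ribosomal subunit and helps it to load onto mRNA, and eIF3a is its largest subunit. Some mRNAs are also bound by eIF3 directly, and the series title is concerned with 5′ untranslated regions that carry m6A and with translation that does not depend on the cap. In PAR-iCLIP, ultraviolet light joins the protein to 4-thiouridine in RNA it touches, so a cluster of reads marks a contact and not its effect on translation. Neighbouring sites on genomic DNA may be joined in the RNA by splicing or may lie in different RNAs. Which of these held was not analysed here, because no hg19 annotation or sequence was used, and for the same reason sites are named by position and not by gene.

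The spaced sites were concentrated at the short end of their range. The median distance was 276.5 nt, with quartiles of 146.75 and 537.25 nt. There were 139 sites (38.6%) with a neighbour at 100 to 199 nt, 55 at 200 to 299 nt and 13 at 900 to 1000 nt. Distance was the value by which the sites were chosen, so its spread is a description. The distance of a mutual pair enters for both of its sites. The site pair at the lower limit lay 100 nt apart on the minus strand of chromosome 3, with 4 reads (11685260 to 11685298) and 6 reads (11685095 to 11685159). Just outside it, 98 nt separated a minus-strand pair of 22 and 27 reads on chromosome 9 (86593168 to 86593194 and 86593293 to 86593367) and a pair of 3 reads each on chromosome 6. The largest distance inside the range was 991 nt, for a plus-strand site of 15 reads on chromosome 1 (8022825 to 8022845). The next pair beyond the range lay 1021 nt apart on the minus strand of chromosome 7, with 10 and 15 reads.

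Most spaced sites came as pairs. In 153 pairs each site was the nearest to the other, which accounted for 306 of the 360. Of the remaining 54, 43 had as their nearest a cluster that was itself closer still to another, and 11 stood in a row of spaced sites. Choosing sites by the distance to their nearest cluster favours such pairs, so the pairing is a description. It was not particular to spaced sites. Among the 845 clusters with a closer neighbour, 363 mutual pairs lay 1 to 99 nt apart. Joining all same-strand clusters at most 1000 nt apart put the 360 into 194 regions. Of these, 142 held 2 spaced sites and nothing else, 9 held 3, 1 held 4, and 42 held 45 spaced sites beside closer clusters. By strand, 170 of the sites were plus and 190 minus, and the median was 8 reads for both.

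**Figure D1:**
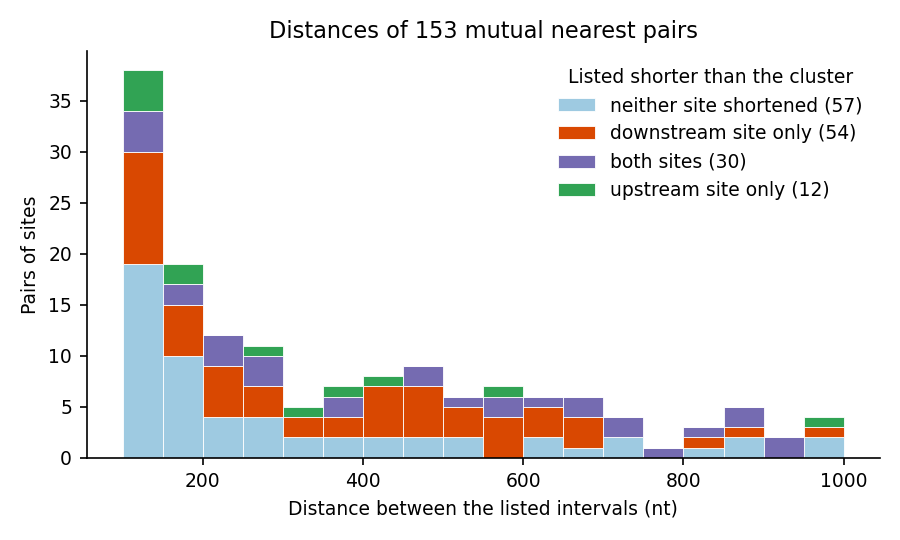
The horizontal axis is the distance between the listed intervals of the 153 mutual nearest pairs in nt, in bins of 50 nt, and the vertical axis is the number of pairs. Colours show which site of the pair was listed shorter than its cluster: neither in 57 pairs, the downstream one alone in 54, both in 30 and the upstream one alone in 12.

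The median number of reads was slightly higher at spaced sites than elsewhere in the list. It was 8 reads per cluster, the quartiles were 4 and 14, and single sites held 3 to 81. The median was 6 reads in clusters with a closer neighbour and 6 in those without a neighbour within 1000 nt. The score, which is the highest read coverage in the cluster, had a median of 5 in all 3 classes. A score of 10 or more was reached by 73 spaced sites, or 20.3% (95% Wilson interval 16.4 to 24.7), against 10.3% (8.42 to 12.5) of those with a closer neighbour and 13.1% (11.8 to 14.5) of those without one. Scores of 3 or less made up 16.1% of spaced sites, 20.1% of the close ones and 25.8% of the isolated ones. These differences were not tested, since clusters of 1 region are not independent and the replicates are not kept apart.

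Part of the list gave an interval shorter than the cluster it came from, and high scores were more frequent among such sites in each class. Of the spaced sites, 151 (41.9%, interval 37.0 to 47.1) were shortened by more than the usual 1 nt. The share was 23.0% in clusters with a closer neighbour and 48.0% in isolated ones. Reads and score describe the whole cluster, including the part that was not listed. Among shortened sites, 36.4% of the spaced ones scored 10 or more, against 16.0% of the close and 21.2% of the isolated ones. Among sites listed in full, the shares were 8.61%, 8.60% and 5.62%, and the median numbers of reads were 6, 6 and 5. In these values the spaced sites listed in full were level with the close ones and slightly above the isolated ones. The intervals of the spaced (5.52 to 13.2) and isolated (4.46 to 7.05) shares overlapped, and the difference was not tested. Shortened spaced sites had a median of 12 reads in clusters of 77 nt, and those listed in full 6 reads in clusters of 59 nt. How far shortening accounts for the difference between the classes was not tested.

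**Figure D2:**
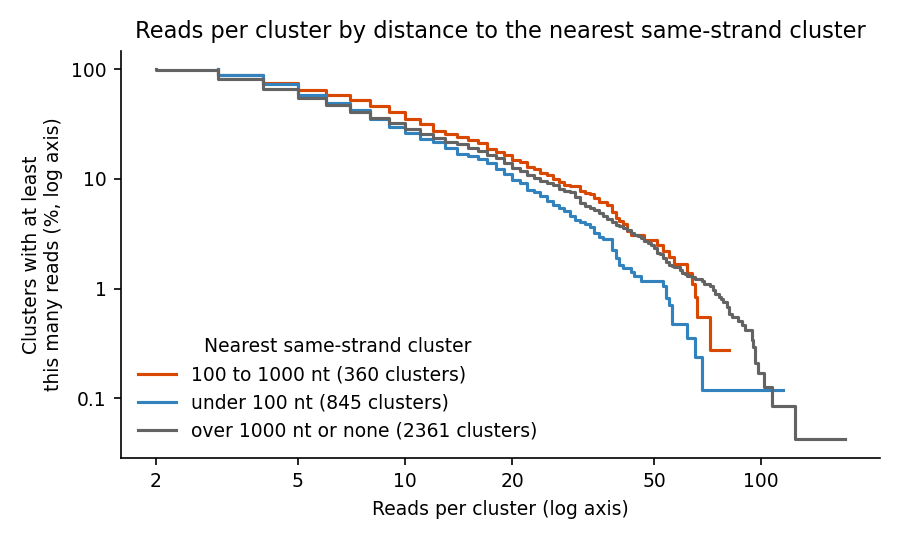
The horizontal axis is the number of reads per cluster and the vertical axis the percentage of clusters with at least that many, both logarithmic, for clusters whose nearest same-strand cluster lay at 100 to 1000 nt, under 100 nt, or over 1000 nt away. Spaced sites had a median of 8 reads and the other classes 6 each, while the cluster with the most reads, 172, was in the isolated class and the highest spaced site had 81.

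Spaced clusters were also slightly longer and denser. Their median length was 65 nt, with a range from 27 to 424 nt, against 60 nt in each of the other classes. Reads stood at a median of 11.4 per 100 nt of cluster, against 10.9 in clusters with a closer neighbour and 10.5 in isolated ones. A single summit was seen in 129 spaced sites (35.8%), compared with 41.9% and 44.0% in the other classes, and 75 had 5 summits or more. In sites listed in full, the median length was 59 nt for the spaced, 58 nt for the close and 49 nt for the isolated ones. Their median densities were 10.3, 10.8 and 9.86 reads per 100 nt, and single summits made up 43.5%, 44.7% and 57.4%. Spaced sites listed in full were thus not denser than close ones. Reads and length went together over the 360 sites (Spearman's rho 0.850). The distance to the neighbour was only weakly related to the number of reads, with a rho of 0.17 over the same sites, which share regions and libraries. The median number of reads was 6 at 100 to 199 nt, 8 at 200 to 499 nt and 10 at 500 to 1000 nt, and the shortened shares were 30.9%, 43.2% and 55.3%.

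No difference in reads between the sides of a pair was detected. Upstream here means the 5′ side on the strand of the pair. The upstream site had more reads in 73 pairs, the downstream site in 64, and 16 were tied. The upstream share of the 137 unequal pairs was 53.3% (interval 45.0 to 61.4), which a two-sided exact binomial test did not separate from equal shares (p = 0.494). In total, 1860 reads lay in upstream and 1881 in downstream sites. The upstream share was 63.8% in the pairs with both sites listed in full (30 of 47 unequal pairs, interval 49.5 to 76.0, exact binomial p = 0.0789) and 47.8% where at least 1 was shortened (43 of 90, p = 0.752). Whether these shares differ was not tested.

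Most pairs were made of sites with read numbers of the same order. The stronger site had a median of 1.70 times the reads of the weaker one, with quartiles of 1.33 and 2.33, and in 100 of 153 pairs (65.4%) the ratio was 2 or less. Read numbers of the sites of a pair had a rho of 0.51 over the 153 pairs, and scores 0.61. In the 363 mutual pairs that lay 1 to 99 nt apart, the rho of the reads was 0.32, and in 141 pairs at 1001 to 10000 nt it was 0.57. The ratio was 2 or less in 70.0% and 68.1% of these pairs, with a median of 1.67 at both distances. It was thus not particular to spaced pairs. The rho of the reads was 0.34 in the 57 spaced pairs listed in full and 0.51 in the 96 with at least 1 shortened site. Sites of a pair share the RNA level of their locus wherever they lie in 1 transcript, and that level was not measured. A ratio of 5 or more was seen in 7 pairs, from 5.33 to 13.3.

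The most unequal pairs had the larger site on either side. An upstream plus-strand site of 40 reads on chromosome 12 (120933912 to 120934019) stood 203 nt before one of 3 reads, of whose 29-nt cluster 2 nt were listed. The profile of that small cluster also occurred at other listed loci, as profiles of so few reads can by coincidence. A plus-strand pair on chromosome 19 had the reverse order, with 5 reads (41256916 to 41256958) and, 146 nt further on, 62 reads (41257105 to 41257313). A minus-strand pair on chromosome 5 had 10 reads (140700272 to 140700351) and then 81 reads (140699620 to 140700042), the spaced site with the most reads and the longest one, with 424 nt and 26 summits. Both chromosome 5 sites were listed in full, so their distance of 229 nt is that of the clusters themselves.

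**Figure D3:**
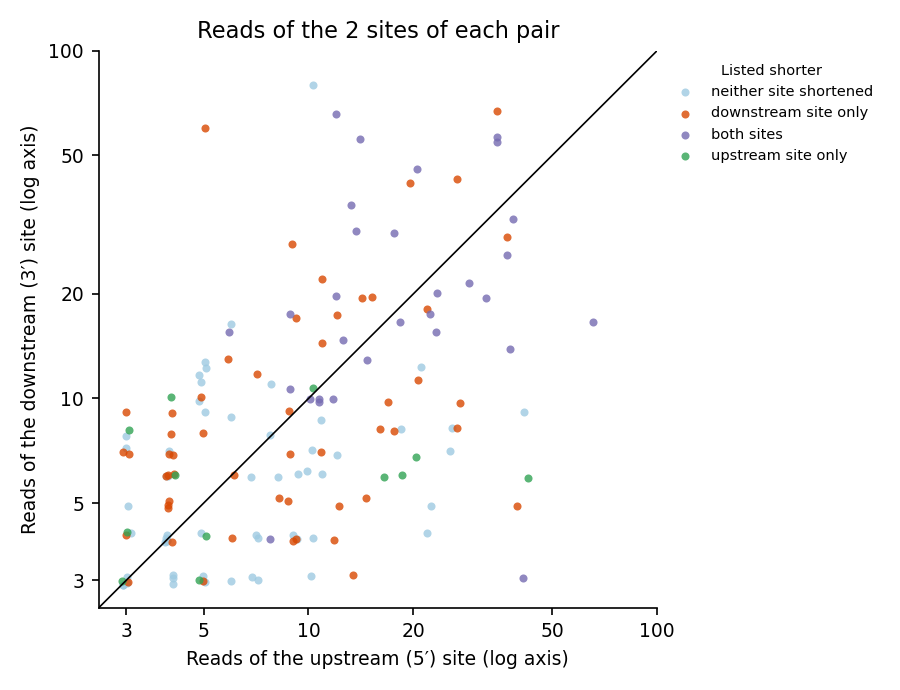
Each point is 1 of the 153 mutual nearest pairs, with the reads of the upstream site on the horizontal and of the downstream site on the vertical axis, both logarithmic, and points moved slightly apart so that equal values can be seen. The line marks equal reads, with 73 pairs below it, 64 above it and 16 on it, and colours show which site was listed shorter than its cluster.

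The sides stood further apart in how much of the cluster was listed. The downstream site was shortened in 84 of 153 pairs (54.9%, interval 47.0 to 62.6) and the upstream site in 42 (27.5%, interval 21.0 to 35.0). Where 1 site of a pair was shortened, it was the downstream one in 54 of 66 pairs (81.8%, interval 70.9 to 89.3). The median listed length was 63 nt upstream and 39 nt downstream, although the clusters themselves had medians of 70 and 63 nt. The listed edges set the distances by which the sites were chosen, so these shares are given as a description, without a test. Taken by strand, the downstream site was the shortened one in 22 of 30 such plus-strand pairs and 32 of 36 minus-strand pairs.

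The imbalance was present at every distance. The downstream site was shortened in 38.6% of the 57 pairs at 100 to 199 nt, 61.5% of the 52 pairs at 200 to 499 nt and 68.2% of the 44 pairs at 500 to 1000 nt. The upstream values were 21.1%, 26.9% and 36.4%. Pairs outside the range showed the same order, with 33.6% downstream and 12.4% upstream at 1 to 99 nt, and 72.3% and 27.7% at 1001 to 10000 nt. The order was thus not particular to the spaced sites. If all unlisted sequence beyond the usual 1 nt per site lay in the gap, 0 of the 153 pairs would touch, and 12 would come closer than 100 nt. Counting that 1 nt as well, 1 pair would touch and 14 would come closer than 100 nt.

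**Figure D4:**
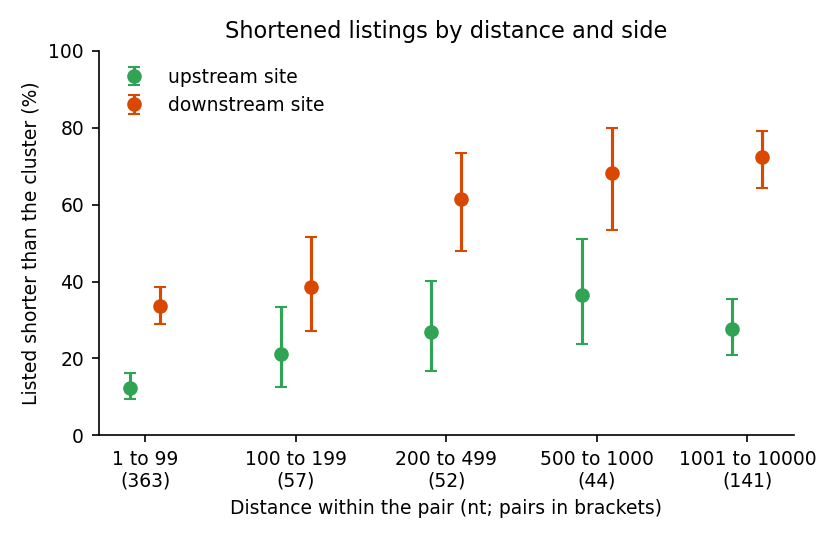
The horizontal axis gives the distance within mutual nearest pairs in nt, with the number of pairs in brackets, and the vertical axis the percentage of sites listed shorter than their cluster, with 95% Wilson intervals. In each distance class the downstream point lies above the upstream one, from 33.6% against 12.4% at 1 to 99 nt to 72.3% against 27.7% at 1001 to 10000 nt.

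An extreme form was a stub, a listed interval of 10 nt or less from a much longer cluster. There were 21 such spaced sites (5.83%, interval 3.85 to 8.75), with clusters of 29 to 217 nt and a median of 19 reads. The neighbour lay upstream of the stub in 20 of them and downstream in 1. Stubs made up 1.42% of clusters with a closer neighbour and 4.96% of isolated ones. The shortest were single bases, namely 8285629 of chromosome 17 (minus strand, 57 reads), 58899504 of chromosome 19 (plus strand, 20 reads) and 49075416 of chromosome 12 (minus strand, 5 reads). For these single bases the position of the summit is unknown. Their scores were 20, 8 and 4, below their numbers of reads, so some of the counted reads did not cover the listed base.

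The 20 highest-scoring spaced sites were spread over 11 chromosomes, scored 15 to 21 and held 20 to 72 reads. At the score of 15, 4 sites were tied, and the 1 with the most reads was taken. Of the 20, 17 were shortened, 17 belonged to a mutual pair and 16 had a neighbour that itself scored 10 or more. Among the shortened ones the part not listed ran from 2 nt, just over the usual 1 nt, to 210 nt. The maximum of 21 belonged to a minus-strand site of chromosome 6 (74229750 to 74229779), where 30 nt of a 172-nt cluster of 64 reads were listed. Its upstream neighbour, 943 nt away (74230723 to 74230755), had 12 reads and a score of 12, so that its reads all overlapped at the summit. The plus-strand site of chromosome 22 at 39916564 to 39916756 had 65 reads and a score of 20, and was followed 604 nt downstream by 17 reads with a score of 10. A plus-strand cluster of chromosome 17 (72199795 to 72199884) also scored 20 with 39 reads, and 172 nt downstream 14 reads scored 12.

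In 2 loci both sites of the pair were among the 20. For the minus-strand pair of chromosome 17, the upstream site (8286475 to 8286550) had a score of 19 from 35 reads, and the 1-nt stub 845 nt downstream had a score of 20 from 57. For the minus-strand pair of chromosome 11, 38 reads (64889564 to 64889662, score 16) stood 270 nt before 29 reads (score 18), of whose cluster 8 nt were listed. Both loci thus had a strong site at each end, and at both the downstream one was listed as a stub.

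Other high sites had a stub or a short listing on their downstream side. Chromosome 2 had a minus-strand stub of 2 nt (198363573 to 198363574) with 47 reads and a score of 18, whose upstream neighbour 931 nt away had 21 reads and a score of 13. Chromosome 11 had 34 minus-strand reads (122932772 to 122932848, score 16) 734 nt before a 5-nt stub of 53 reads. Chromosome 17 had 26 minus-strand reads (79479751 to 79479829, score 16) 364 nt before a 6-nt stub of 42 reads. Chromosome 19 had 24 plus-strand reads (58898636 to 58898706, score 18) 797 nt before the 1-nt stub. Chromosome 16 had 20 plus-strand reads 154 nt before 43 reads (89627356 to 89627367, score 16), of whose cluster 12 nt were listed. The downstream cluster had more reads than the upstream one in 4 of these 5 pairs, and the pair on chromosome 19 was the exception.

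In the remaining mutual pairs of the 20, the high site was mostly the upstream one. The minus-strand pair of chromosome 1 had 35 reads (59249469 to 59249618, score 18) lying 500 nt before 66 reads (59248743 to 59248968, score 11). With 101 reads this was the pair with the most reads of all 153, and the downstream cluster was long, 327 nt, with a lower score than the upstream one. A minus-strand pair of chromosome 3 had 38 reads (88107965 to 88108107, score 18) lying 591 nt before 26 reads spread over 200 nt (score 8). One of chromosome 8, also minus-strand, had 28 reads (99057736 to 99057788, score 18) lying 108 nt before 21 reads (score 11). Of its clusters of 105 and 89 nt, 53 and 32 nt were listed. It was the 1 pair that would touch if all unlisted sequence lay in the gap. A plus-strand pair of chromosome 12 had 20 reads (7052980 to 7053047, score 17) lying 199 nt before 7 reads (score 4). The plus-strand pair of chromosome 6 had the reverse order, with 12 reads (133135708 to 133135752) and, 118 nt on, 20 reads (133135871 to 133135907, score 16).

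The last 3 of the 20 stood downstream of a group of closer clusters. Chromosome 3 had 72 plus-strand reads (23959335 to 23959350, score 15) 554 nt after a cluster of 44 reads. Chromosome 17 had a plus-strand stub of 6 nt (16285216 to 16285221, 51 reads, score 17) 722 nt after a cluster of 24 reads. Chromosome 11 had 31 minus-strand reads (10529774 to 10529788, score 16) 114 nt after a cluster of 38 reads (score 22). All 3 were shortened.

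After the chromosome 1, chromosome 17 and chromosome 5 pairs of 101, 92 and 91 reads, the pairs with the most reads were those of chromosome 11 (87 reads at 122932033 to 122932848) and chromosome 22 (82 reads). In 4 of these 5 pairs the downstream site had more reads, and in the chromosome 22 pair the upstream site did. The 36 spaced sites with the most reads held 35.4% of all their reads.

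In 10 regions 3 or 4 spaced sites followed each other with no closer cluster among them. The row of 4 was a plus-strand one of chromosome 3, from 184032379 to 184033612, with 11, 5, 11 and 5 reads from 5′ to 3′ at successive distances of 571, 195 and 244 nt. All 4 were listed in full. The widest row, 1373 nt, was a plus-strand one of chromosome 12 from 69979222 to 69980594, with 11, 10 and 11 reads at distances of 748 and 426 nt. The row with the most reads was a minus-strand one of chromosome 17 from 7154616 to 7155259, with 10, 11 and 14 reads. Its distances were 349 and 120 nt. Of its last cluster, 106 nt long, 6 nt were listed, and of its first, 85 nt long, 61 nt were. The clusters may therefore lie closer together than the listed distances. The most compact was a plus-strand one of chromosome 18 from 72922780 to 72923173, with 7, 7 and 6 reads at distances of 122 and 120 nt.

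The other 6 rows were of the same modest size. Reads were fewer at each step from 5′ to 3′ in the minus-strand row of chromosome 11 (16, 8 and 4 reads from 64546238 to 64545224) and more in the plus-strand row of chromosome 17 (4, 6 and 16 reads from 18086895 to 18087459). The middle site had the most reads in the rows of chromosome 2 (plus strand, 8, 10 and 6 reads from 113403538 to 113404379), chromosome 14 (minus strand, 5, 9 and 4 reads from 91976785 to 91976015) and chromosome 22 (minus strand, 4, 6 and 4 reads from 39096459 to 39095993). The minus-strand row of chromosome 15 had 6, 4 and 4 reads from 25684100 to 25683651. Differences of a few reads are within counting error, so these orders are descriptions of the list.

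**Figure D5:**
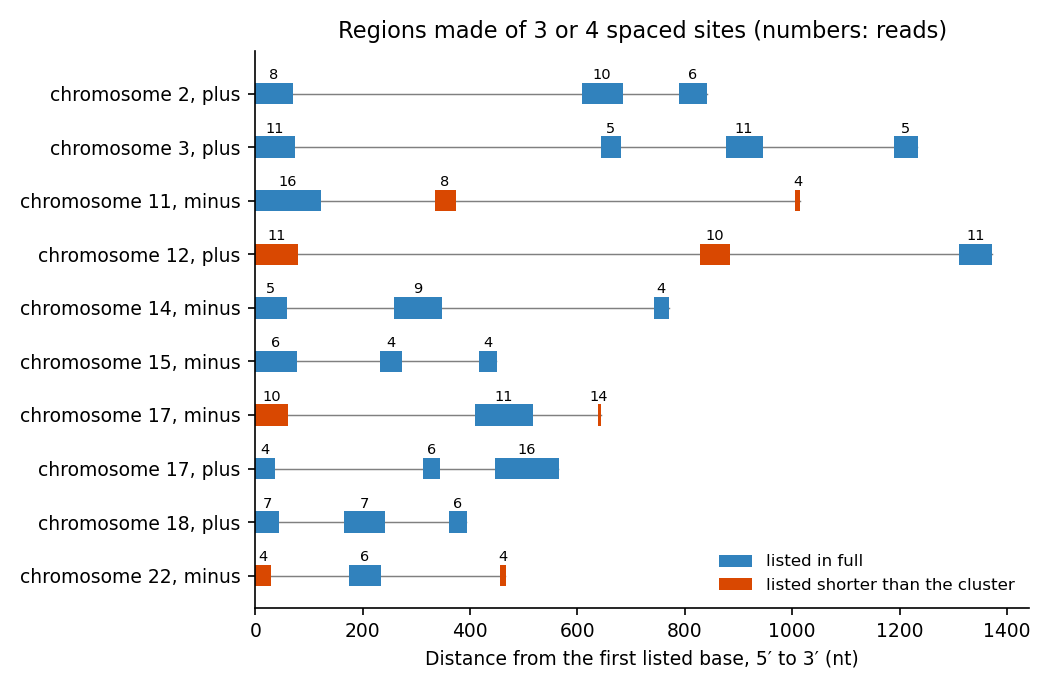
Each line is 1 of the 10 regions made of 3 or 4 spaced sites alone, drawn to scale 5′ to 3′ from its first listed base in nt, with the number of reads above each listed interval. The chromosome 3 row has 4 sites with 11, 5, 11 and 5 reads, and the chromosome 11 row has 16, 8 and 4 reads with its last sites listed shorter than their clusters.

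Spaced sites were found on 23 chromosomes, with 41 on chromosome 1, 31 on chromosome 2, 30 on chromosome 3 and 26 on chromosome 17. Chromosome Y, with 2 clusters in all, had 0. As a share of the clusters of a chromosome they ranged, apart from Y, from 3.96% on chromosome 20 (4 of 101, interval 1.55 to 9.74) to 15.7% on chromosome 9 (17 of 108, interval 10.1 to 23.8), around 10.1% over all primary chromosomes. Differences between chromosomes were not tested.

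One short stretch of chromosome X stood out by its repeated spacing. Between 102 and 103 Mb, 10 of the 19 clusters were spaced sites, and they formed 5 separate pairs, the next highest number in a megabase being 5 sites. The pairs lay at distances of 409 to 606 nt. The minus-strand pairs had 11 and then 7 reads (102510085 to 102509553) and 4 and then 4 reads (102565871 to 102565304). The plus-strand pairs had 17 and then 10 reads (102611410 to 102612056), 8 and then 8 (102631455 to 102632022), and 8 and then 5 (102840449 to 102841199). The upstream site had more reads in 3 pairs and as many in 2, with scores between 4 and 9. Beyond the usual 1 nt, at most 6 nt of any of the 10 were not listed, so none of these distances involves a stub. This stretch was chosen after its values were seen.

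Some spaced sites also faced a site on the other strand. An opposite-strand cluster lay within 1000 nt of 19 of them (5.28%, interval 3.40 to 8.10), against 2.72% (1.82 to 4.05) of clusters with a closer neighbour and 3.98% (3.26 to 4.85) of isolated ones. In 18 of the 19 the minus-strand cluster began further left, the order of sites that point away from each other. The same order held for 23 of 23 such clusters with a closer neighbour and 92 of 94 isolated ones. On chromosome 2 such a head-to-head locus had spaced sites on both strands, with 21 minus-strand reads (198364506 to 198364590) and plus-strand sites of 9 reads (198364848 to 198364946) and 27 reads (198365072 to 198365160). The exception was a plus-strand site of 4 reads on chromosome 21 (27107630 to 27107692), to the left of a minus-strand cluster of 12 reads, whose other end overlapped a second spaced site of 3 reads (27107838 to 27107877). That second site is counted among the 18, although it overlapped the cluster it faced. Both sites of a pair faced the same opposite-strand cluster on chromosomes 1, 2, 3, 4, 9, 10, 14 and 21. Most loci behind the 19 sites are thus counted more than once, in the share and in its interval. Isolated clusters have no same-strand partner within 1000 nt, so the shares of the classes are not on equal terms. The intervals treat the sites as independent. The other-strand neighbours were not used in choosing the sites, and the classes were not compared by a test.

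Some reads may have been placed at several loci. Of the 360, 51 spaced sites, with up to 17 reads, had a profile that occurred at another locus, which simple profiles of few reads can do by coincidence. Repeated profiles also occurred outside the spaced sites, since the list held 3113 distinct profiles in 3604 clusters. The share of clusters with a repeated profile over the whole list was not worked out. Whether such profiles were more or less frequent at spaced sites is therefore not known. Profiles intricate enough to be told apart, with at least 100000 possible arrangements of their read starts, were present at 211 of the 360, and 3 of these had the same profile as another locus, beside 23 of 1751 such profiles over all primary clusters. These minus-strand sites were 1 of chromosome 4 (69215674 to 69215792, 10 reads) and 2 of chromosome 6 (33385446 to 33385490, 17 reads, and 33385754 to 33385832, 12 reads). Other loci were sought among all 3604 clusters, including those on sequences outside the primary chromosomes. Whether a repeated profile lay on such a sequence, as another version of the same locus, was not analysed. Copies that are not in the list would not be seen.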

How the data were processed

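The authors deposited 1 list for the series, with the position, strand, signal and profile of coverage of each entry. Its deposited signal is the highest read coverage in whole reads, without normalization, read from the values because there is no header. Reads were aligned to hg19 with Bowtie, per the submitters' processing notes. The cluster caller, its filters, duplicate removal and the pooling of replicates stay unknown (not given in the sources used here). Library depth is unknown.

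Each of 3113 distinct profiles could be divided into 25-nt reads without remainder, and the reads of each cluster were counted that way. The splitting and the search for neighbours were tested on simulated data. Entries (4013) were joined into 3604 clusters, 3566 of them on primary chromosomes. Distances count the bases between listed intervals, and positions count from 1. Shares carry 95% Wilson intervals, and the order of reads within pairs a two-sided exact binomial test at 0.05. The sites and lists were chosen with earlier results of these data known. The rule for named sites took the 20 highest scores (ties by reads) with their neighbours, the 5 pairs with the most reads, sites at the limits of the range and rows of 3 or more, and others were named after their values were seen. Python 3.11.15, numpy 2.4.6, pandas 2.3.3, scipy 1.17.1 and matplotlib 3.10.9 were used. The gene lists set for naming were not applied, and the m6A samples were not analysed here.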

Additional observations from a re-analysis of the deposited data

How the results depend on the processing

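The number of spaced sites was 360, and 259 to 416 under 4 alternatives for the distance limit and the joining of clusters or entries. It was 465 with a limit of 2000 nt and 189 when clusters scoring under the median of 5 were left out, which also removes neighbours. Among the spaced sites scoring 5 or more, the median reads were 12 in place of 8 and the median score 7 in place of 5, which follows from the filter. In fully listed sites the medians were 6 reads and a score of 4. A tolerance of 5 nt lowered the shortened share from 41.9% to 34.7%. The upstream share of unequal pairs, 53.3%, stayed between 50.5% and 63.8% in 5 alternatives with no p under 0.05, and was 47.8% in pairs with at least 1 shortened site; the cause was not tested. Alternatives for fully listed sites, shortened pairs and intricate profiles were chosen after seeing the data. Planned results on untranslated regions, genes, introns, base composition and motifs (4 in all) were not run, as no hg19 annotation or sequence was used. No paired analysis was possible because the replicates are not separated in the list. The median of 8 reads per site limits what can be said of any 1 site.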
